A study of Mus musculus with 4 samples.

Results

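The Bcl2 family decides whether the outer mitochondrial membrane of a cell stays closed or is opened during apoptosis. The 10 members described here were taken by gene name from a table of 32285 genes, and all 10 were found and passed the filter on low counts. They are 3 pro-survival genes (Bcl2, Bcl2l1 and Mcl1), 2 effectors (Bax and Bak1) and 5 BH3-only genes (Bcl2l11, Bid, Bad, Bbc3 and Pmaip1). Their transcripts were counted by RNA sequencing in GS cells, cultured spermatogonia established from testes of wild-type mice aged 10 days, in 2 libraries of strain 129 and 2 libraries of C57BL/6 (B6). All mice were wild type and no treatment is named, so strain was the one stated difference, although the titles of the B6 libraries also carry the term F0, which the labels do not explain. Whether the replicates of a strain are separate cultures is not stated, so the p-values below measure only the spread between these libraries, which may be technical. Libraries of a strain differed by more than counting noise, with a chi-square per gene of 54.6 within 129 and 43.1 within B6.

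Pro-survival members hold the effectors in check, the effectors Bax and Bak1 form the pores that release cytochrome c, and BH3-only proteins either neutralise the pro-survival members or engage the effectors. BH3-only genes are the stress sensors of the family. Several of them are switched on by transcription factors such as p53 and FOXO3. In the mouse testis this pathway removes surplus germ cells during the first wave of spermatogenesis, and loss of Bax leads to an excess of spermatogonia.

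What joins members of all 3 roles is the BH3 core, the short stretch through which they bind each other. The stretches below are the coding bases of 9 members, 33 bases each from the GENCODE M21 transcripts on GRCm38, all within a coding exon and written 5′ to 3′ on the strand of the gene. They are shown because this is the sequence the members share, and capitals mark the leucine and aspartate codons of the core.
Bcl2, chr1:106712569-106712601, minus strand: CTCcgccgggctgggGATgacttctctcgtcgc
Bcl2l1, chr2:152829691-152829723, minus strand: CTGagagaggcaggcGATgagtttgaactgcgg
Mcl1, chr3:95659436-95659468, plus strand: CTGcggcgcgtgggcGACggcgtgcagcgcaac
Bax, chr7:45465991-45466023, minus strand: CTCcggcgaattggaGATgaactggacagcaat
Bak1, chr17:27022525-27022557, minus strand: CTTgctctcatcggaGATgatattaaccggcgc
Bcl2l11, chr2:128147150-128147182, plus strand: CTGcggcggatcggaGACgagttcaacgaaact
Bid, chr6:120897283-120897315, minus strand: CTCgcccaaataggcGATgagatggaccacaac
Bad, chr19:6950792-6950824, plus strand: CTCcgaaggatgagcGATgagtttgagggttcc
Bbc3, chr7:16313773-16313805, plus strand: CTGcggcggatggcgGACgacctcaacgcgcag
Each stretch was the only match to the core in its protein-coding transcript. Bcl2l11 and Bbc3 were the closest pair, with 23 of 33 bases identical (69.7%), and Bcl2l1 and Bax were the least alike (39.4%).

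The libraries held 20798809 and 20375086 counts in 129 and 25374801 and 20488618 counts in B6, of which the 10 members took 0.0639% and 0.0538% in 129 and 0.0471% and 0.0559% in B6. Germ cell genes were present in every library: the summed level of 9 germ cell markers, Ddx4 and Dazl among them, was 2072 and 2774 CPM (counts divided by the TMM-scaled size of each library) in 129 and 3179.6 and 3336 CPM in B6. Of these 9 genes, 7 were lower in 129 with no overlap of libraries, as were 29.2% of all genes tested. Their median log2 fold change was -0.49, and neither edgeR nor DESeq2 called any of them. Markers of other cells were also present, and the 129 libraries lay apart in them. The 8 fibroblast markers summed to 2279 and 862 CPM in 129 and to 3755 and 2327 CPM in B6. Of these 8 genes, 6 were lower and 2 higher in 129 with no overlap of libraries (median log2 fold change -1.16). edgeR called 1, Pdgfra, which was higher, and DESeq2 called 4 lower and 2 higher. Thy1 was lower in the first 129 library than in the second (6.91 and 14.5 CPM), against the direction of the fibroblast sum. The 8 Sertoli cell markers summed to 283 and 147 CPM in 129 and to 19.7 and 23.7 CPM in B6, with 2 of 7 tested called higher. Clu and Rhox5 made up most of that sum in 129, while Wt1 was higher in the second 129 library (12.7 and 26.1 CPM). The 6 endothelial markers summed to 204 and 86.2 CPM in 129 and to 24.3 and 23.5 CPM in B6, with 2 of 6 called higher. Most of that sum in 129 came from Cdh5 (87.9 and 27.0 CPM in 129, 0.723 and 2.62 CPM in B6) and Eng (95.9 and 32.6 CPM in 129, 4.74 and 5.0 CPM in B6). Pecam1, Tek and Vwf were lower in the first 129 library than in the second and overlapped between the strains. Peritubular muscle markers summed to 92.2 and 39.9 CPM in 129 and to 80.5 and 23.4 CPM in B6, macrophage markers to 49.7 and 18.3 CPM in 129 and to 28.7 and 26.4 CPM in B6, and Leydig cell markers to 4.20 and 4.36 CPM in 129 and to 9.04 and 6.24 CPM in B6. No marker was at 0 in all 4 libraries, but the Sertoli cell markers Amh, Fshr and Cldn11, the Leydig cell markers Cyp17a1, Cyp11a1, Hsd3b1, Insl3 and Lhcgr and the leukocyte marker Ptprc were under 1 CPM in each. The first 129 library had the higher sum of its strain in all of these lists except the germ cell and Leydig lists. In such bulk samples a change in the share of a cell type and a change in RNA per cell cannot be told apart.

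Only 1 member, the BH3-only gene Bbc3, passed the edgeR test, higher in 129 and close to the threshold (edgeR adjusted p = 0.049). By the edgeR quasi-likelihood test, with p adjusted by Benjamini-Hochberg over 16005 genes, 1 of the 10 members was called higher and 0 lower, where 2.86% of all genes tested were called, 1.84% higher and 1.02% lower. At an unadjusted p under 0.05, 3 members were higher (Bcl2, Bak1 and Bbc3) and 1 was lower (Pmaip1), where 28.1% of all genes tested had such a p, 15.9% higher and 12.2% lower. DESeq2 called these 4, where it called 10.6% of the 23752 genes it tested, 6.78% higher and 3.86% lower. That set also holds genes of low count. Among the 16005 genes of the edgeR test, which include all 10 members, DESeq2 called 1587 higher and 898 lower. limma-voom called 0 of the 10, where it called 1.54% of genes, and gave 3 an unadjusted p under 0.05, as it did 26.2% of genes. The libraries of the strains did not overlap for 7 members, 6 higher and 1 lower in 129, but this was so for 60.1% of all genes tested, 31.0% higher and 29.2% lower. The median log2 fold change of the 10 members was 0.42, against 0.02 over all genes tested.

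**Figure D1:**
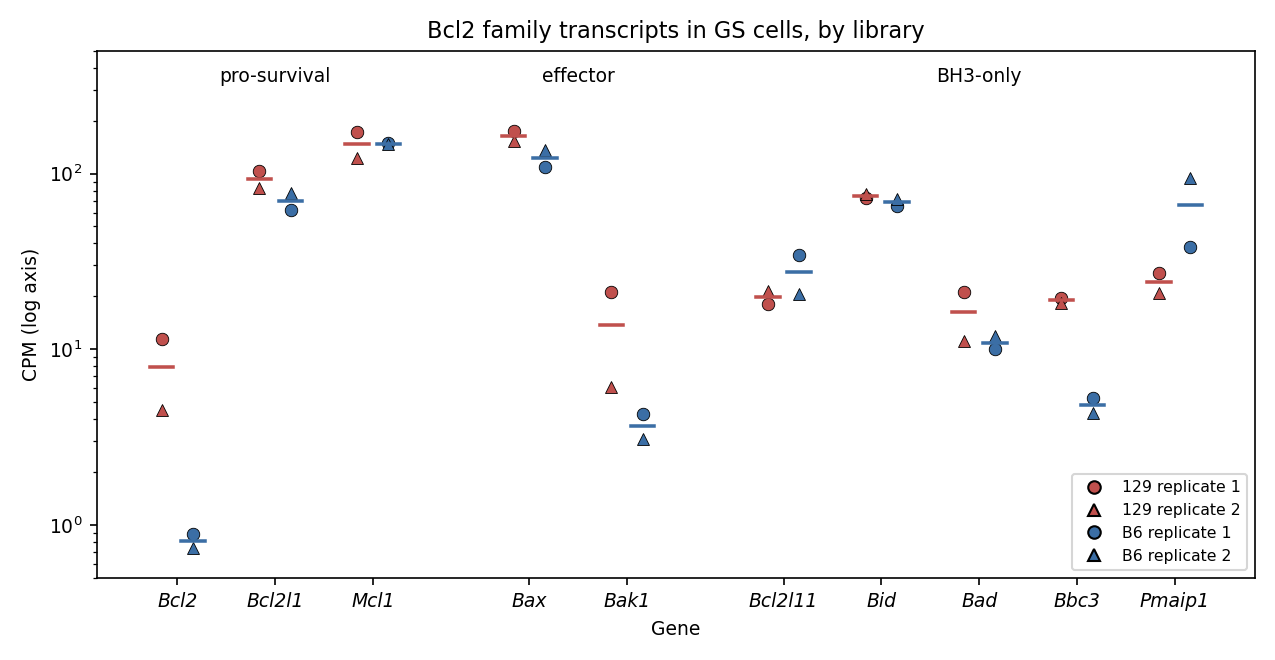
CPM of each member in each library on a log axis, grouped by role; circles and triangles are replicates 1 and 2, red is 129, blue is B6, and short lines are strain means. Bbc3 sits at 19.6 and 18.3 CPM in 129 and at 5.30 and 4.31 CPM in B6, and Bcl2 has the widest gap between strains, at 11.4 and 4.50 CPM in 129 and 0.884 and 0.743 CPM in B6.

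Among pro-survival genes, Bcl2, the founding member of the family, had the largest difference of all 10, although its test missed the threshold. Bcl2 lies on chromosome 1 (106538178 to 106714274, minus strand, GRCm38). It had 236 and 95 counts in 129 and 22 and 15 counts in B6, or 11.4 and 4.50 CPM in 129 and 0.884 and 0.743 CPM in B6. Both 129 libraries were above both B6 libraries, and the 129 libraries differed from each other by 2.53-fold. The log2 fold change of Bcl2 was 3.27 (SE 0.68, edgeR adjusted p = 0.054), with 639 of the 16005 genes at a smaller p. DESeq2 called it (adjusted p = 1.9e-05) and limma-voom did not (adjusted p = 0.074). Its log2 fold change was 2.46 without 129 replicate 1 and 3.79 without 129 replicate 2. The higher of the 129 libraries was the one with the larger fibroblast and Sertoli marker sums and more Cdh5 and Eng RNA. Between the strains, the fibroblast sum was higher in B6 (2279 and 862 CPM in 129, 3755 and 2327 CPM in B6), where Bcl2 was lower. The Sertoli sum was higher in 129 (283 and 147 CPM, against 19.7 and 23.7 CPM in B6), as Bcl2 was. So were Cdh5 (87.9 and 27.0 CPM in 129, 0.723 and 2.62 CPM in B6) and Eng (95.9 and 32.6 CPM in 129, 4.74 and 5.0 CPM in B6). The part of these cell types in the Bcl2 difference was not tested.

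Bcl2l1, which encodes Bcl-xL, lies on chromosome 2 (152780668 to 152831728, minus strand). Its level was 103 and 83.1 CPM in 129 and 62.2 and 77.7 CPM in B6. The strains did not overlap, but the nearest libraries were close, and the log2 fold change of 0.41 (SE 0.22, edgeR adjusted p = 0.28) did not pass. Mcl1, a short-lived protein that binds Pmaip1 and Bcl2l11, lies on chromosome 3 (95658788 to 95663176, plus strand). Mcl1 stood at 173 and 123 CPM in 129 and at 150.2 and 147 CPM in B6, so that both B6 libraries fell between the 129 libraries. Its log2 fold change was -0.0047 (SE 0.22, edgeR adjusted p = 0.99), and its sign changed with library totals in place of TMM factors.

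Of the effectors, Bak1 differed more between strains than Bax, and neither passed the test. Bax (chromosome 7, 45461697 to 45466898, minus strand) was at 175 and 154 CPM in 129 and at 109 and 137 CPM in B6. Both 129 libraries were higher, with a log2 fold change of 0.42 (SE 0.20, edgeR adjusted p = 0.23). Bak1 (chromosome 17, 27019810 to 27029009, minus strand) was at 21.3 and 6.12 CPM in 129 and at 4.26 and 3.07 CPM in B6. Its first 129 library stood apart from the other 3, at 3.47 times the second. The log2 fold change of Bak1 was 1.89 (SE 0.66, edgeR adjusted p = 0.12), or 0.73 without 129 replicate 1 and 2.53 without 129 replicate 2. As for Bcl2, the fibroblast and Sertoli marker sums, Cdh5 and Eng were higher in the first 129 library. The fibroblast sum was higher in both B6 libraries (3755 and 2327 CPM) than in either 129 library (2279 and 862 CPM), while Bak1 was lower in B6. The Sertoli sum (283 and 147 CPM in 129, 19.7 and 23.7 CPM in B6), Cdh5 and Eng were higher in 129, as Bak1 was. The part of these cell types in the Bak1 difference was not tested. Bak1 shares 437 exonic bases with Ggnbp1 on the opposite strand, which had 177 and 242 counts in 129 and 150 and 125 counts in B6. How the counting treated strand is not stated, and reads of such a pair can be told apart only where strand was used.

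Bbc3, which encodes PUMA, a BH3-only protein induced by p53 that binds all pro-survival members, was the member that passed the test. It lies on chromosome 7 (16308393 to 16318205, plus strand). It had 405 and 387 counts in 129 and 132 and 87 counts in B6, or 19.6 and 18.3 CPM in 129 and 5.30 and 4.31 CPM in B6. The 129 libraries of Bbc3 differed from each other by 1.07-fold and the B6 libraries by 1.23-fold, and the groups were far apart. The log2 fold change was 1.97 (SE 0.37, edgeR adjusted p = 0.049), a 3.93-fold higher level in 129, and both 129 libraries were above both B6 libraries. Its log2 fold change was 1.93 without 129 replicate 1 and 2.02 without 129 replicate 2, so it did not follow the first 129 library as Bcl2 and Bak1 did. The call was close to the threshold: limma-voom gave an adjusted p of 0.061, and edgeR with a stricter filter gave an adjusted p of 0.052. Leaving out any 1 library gave log2 fold changes from 1.79 to 2.13.

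Pmaip1 went the other way. It encodes NOXA, a p53-induced BH3-only protein that mainly targets Mcl1, and lies on chromosome 18 (66458533 to 66465565, plus strand). Pmaip1 was at 27.1 and 20.8 CPM in 129 and at 38.1 and 94.2 CPM in B6. Both 129 libraries were below both B6 libraries, and the B6 libraries differed from each other by 2.47-fold. Its log2 fold change of -1.46 (SE 0.44, edgeR adjusted p = 0.097) did not pass, while DESeq2 called it lower (adjusted p = 0.014). Without B6 replicate 2 the value was -0.71, and without B6 replicate 1 it was -1.98. The second B6 library, where Pmaip1 was higher, had the lower fibroblast sum (3755 and 2327 CPM in B6) and peritubular muscle sum (80.5 and 23.4 CPM in B6). The germ cell marker Gfra1 was higher in that library, but not lower in 129 (77.1 and 227 CPM in B6, 216 and 248 CPM in 129). The part of these in the Pmaip1 difference was not tested.

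Bcl2l11, Bid and Bad showed smaller differences. Bcl2l11, which encodes BIM, a BH3-only protein controlled by FOXO3 in many cells, lies on chromosome 2 (128126038 to 128162547, plus strand). It was at 18.2 and 21.5 CPM in 129 and at 34.6 and 20.5 CPM in B6, where the first B6 library alone was high and the strains overlapped. Its log2 fold change was -0.48 (SE 0.35, edgeR adjusted p = 0.42), and -0.05 without B6 replicate 1. Bid, the BH3-only protein that caspase-8 cleaves to link death receptors to mitochondria, lies on chromosome 6 (120891930 to 120916853, minus strand). Bid was the most even member, at 72.9 and 76.7 CPM in 129 and at 65.6 and 71.4 CPM in B6 (log2 fold change 0.13, SE 0.20, edgeR adjusted p = 0.72). Bid shares 628 exonic bases with its relative Bcl2l13 on the opposite strand.

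Bad, whose protein is held inactive by phosphorylation downstream of growth factor signalling, lies on chromosome 19 (6941861 to 6951899, plus strand). It was at 21.3 and 11.2 CPM in 129 and at 10.0 and 11.9 CPM in B6. The first 129 library stood apart from the other 3 and the strains overlapped (log2 fold change 0.57, SE 0.42, edgeR adjusted p = 0.42, and 0.05 without 129 replicate 1). Bad shares 524 exonic bases with Gpr137 on the opposite strand. Gpr137 had 805 and 516 counts in 129 and 305 and 312 counts in B6, also highest in the first 129 library. The part of this overlap in the Bad counts was not tested.

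**Figure D2:**
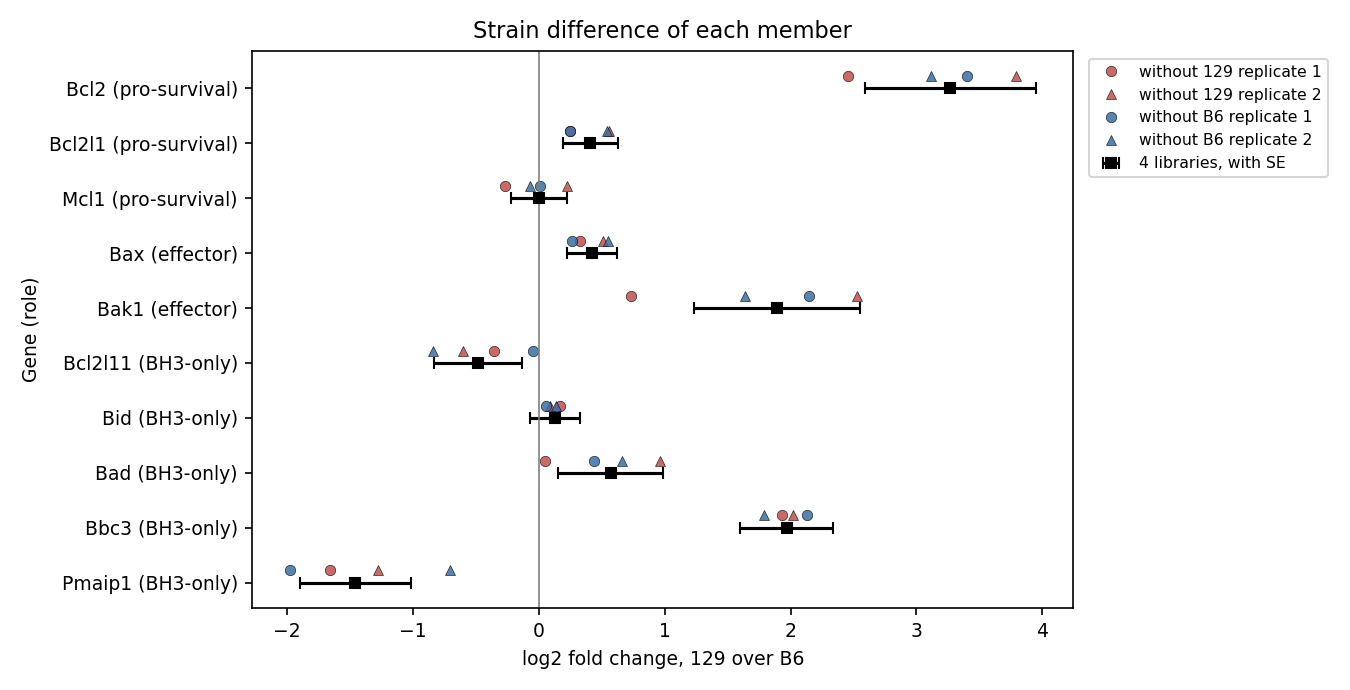
Log2 fold change of 129 over B6 for each member, with its standard error (black), and the same value with each library left out in turn (coloured symbols). The values of Bbc3 stay between 1.79 and 2.13 whichever library is left out, while Bak1 moves to 0.73 without 129 replicate 1 and Pmaip1 to -0.71 without B6 replicate 2.

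Per length, the family was dominated by Bax and Mcl1 in both strains. CPM per kilobase of merged exon were 111 and 97.7 for Bax in 129 and 69.0 and 86.7 in B6. Mcl1 came next at 50.6 and 36.0 in 129 and at 44.0 and 42.9 in B6. In 129 the order of mean levels per kilobase went on with Bid, Bcl2l1, Bbc3, Pmaip1, Bad, Bak1, Bcl2l11 and Bcl2. In B6 it went on with Pmaip1, Bid, Bcl2l1, Bad, Bcl2l11, Bbc3, Bak1 and Bcl2. Bbc3 stood at rank 5 in 129 and rank 8 in B6, at means of 8.93 and 2.26 CPM per kilobase, and Pmaip1 at rank 6 in 129 and rank 3 in B6, at means of 8.77 and 24.2. Bcl2 was the lowest in both, at 0.868 ± 0.533 CPM per kilobase in 129 and 0.0888 ± 0.0109 in B6 (SD, n = 2 each).

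Not every neighbour in these orders was separated by its libraries. In 129, Bid and Bcl2l1 overlapped, as did each neighbouring pair from Bbc3 through Pmaip1, Bad and Bak1 to Bcl2l11. In B6, Pmaip1 overlapped Bid and Bad overlapped Bcl2l11. With the longest transcript as the length, Bax, Mcl1 and Bcl2 kept their ranks in both strains and 5 of 10 members in 129 and 7 of 10 in B6 kept theirs. Bbc3 then stood at rank 6 in 129 and rank 8 in B6, and Pmaip1 at rank 7 in 129 and rank 5 in B6.

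The effectors made up more of the family's summed level in 129, and the smaller BH3-only share there rested on Pmaip1. Effectors held 49.0% and 50.2% of the summed level per kilobase in 129 and 41.3% and 41.6% in B6. The BH3-only genes held 20.6% and 22.5% in 129 and 25.2% and 30.1% in B6. The pro-survival genes held 30.4% and 27.3% in 129 and 33.6% and 28.3% in B6, which overlapped. Without Pmaip1, an alternative chosen after seeing the data, the BH3-only share was 17.2% and 19.4% in 129 and 18.5% and 16.6% in B6, which overlapped. The effector share was then 51.1% and 52.2% in 129 and 44.9% and 49.6% in B6, still higher in 129 but with the strains closer. The pro-survival share was then 31.7% and 28.4% in 129 and 36.6% and 33.8% in B6, lower in 129 without overlap. These shares are a description with no test, and Bax supplied most of the effector share. The ratio of Bax to Bcl2 per kilobase was 89.0 and 199 in 129 and 715 and 1069 in B6, and the ratio of Bbc3 to Pmaip1 was 0.929 and 1.13 in 129 and 0.179 and 0.0588 in B6. Both ratios lay apart between the strains, the first lower and the second higher in 129. They restate the differences of Bcl2, Bbc3 and Pmaip1 given above, and the first rests in B6 on 22 and 15 counts of Bcl2.

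**Figure D3:**
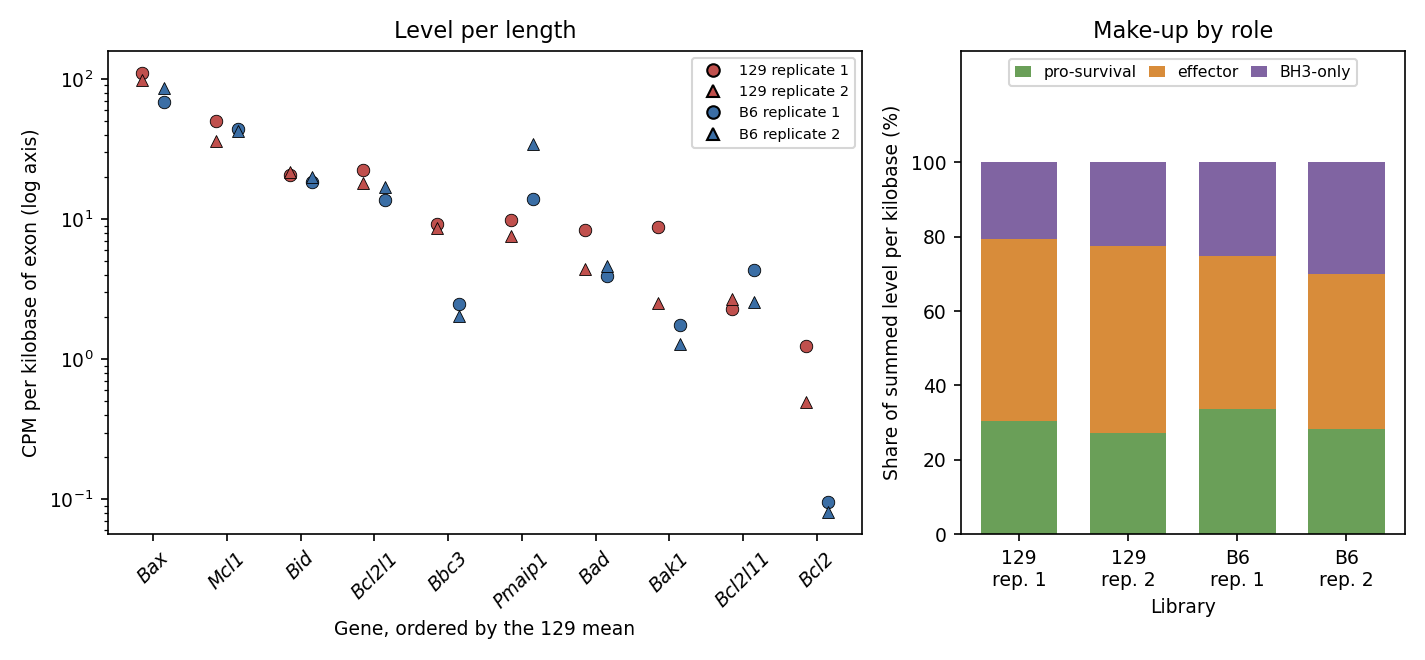
Left, level of each member per kilobase of merged exon (CPM per kilobase, log axis) in each library, ordered by the 129 mean; right, share in percent of each role in the summed level of the 10 members, per library. Bax leads in all 4 libraries, and the effector share is 49.0% and 50.2% in 129 and 41.3% and 41.6% in B6.

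Promoter windows of 9 of the 10 members were taken from RefSeq on GRCm38.p6, in all 15 windows of 250 bases before an annotated start. Pmaip1 was not searched, so the motif counts below do not cover it. Those of Bcl2 and Bbc3 are shown as the members with the largest strain difference and the passing test, that of Bcl2l11 for a motif it shares with Bbc3, and that of Bax for the only p53 decamer among the windows. Capitals mark the p53 decamer, the FOXO heptamer GTAAACA, the GC box GGGCGG and the E-box CACGTG, searched on both strands, where GC boxes may touch or overlap.
Bcl2, chr1:106714291-106714540, minus strand: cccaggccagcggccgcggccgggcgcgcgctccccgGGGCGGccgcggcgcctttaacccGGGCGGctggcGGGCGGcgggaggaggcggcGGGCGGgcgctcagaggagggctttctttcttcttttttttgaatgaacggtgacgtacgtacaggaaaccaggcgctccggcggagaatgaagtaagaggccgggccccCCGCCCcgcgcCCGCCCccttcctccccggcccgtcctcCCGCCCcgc
Bbc3, chr7:16310011-16310260, plus strand: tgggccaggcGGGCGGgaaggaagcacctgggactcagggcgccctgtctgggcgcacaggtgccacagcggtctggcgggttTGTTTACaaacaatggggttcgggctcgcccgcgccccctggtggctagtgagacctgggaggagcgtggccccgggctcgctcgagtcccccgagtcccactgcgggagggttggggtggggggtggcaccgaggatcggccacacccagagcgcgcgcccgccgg
Bcl2l11, chr2:128125788-128126037, plus strand: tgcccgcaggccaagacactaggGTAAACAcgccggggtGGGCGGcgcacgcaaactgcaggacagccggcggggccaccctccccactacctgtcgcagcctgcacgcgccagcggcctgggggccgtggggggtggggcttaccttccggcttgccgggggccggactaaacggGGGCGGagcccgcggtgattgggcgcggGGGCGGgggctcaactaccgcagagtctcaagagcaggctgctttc
Bax, chr7:45466899-45467148, minus strand: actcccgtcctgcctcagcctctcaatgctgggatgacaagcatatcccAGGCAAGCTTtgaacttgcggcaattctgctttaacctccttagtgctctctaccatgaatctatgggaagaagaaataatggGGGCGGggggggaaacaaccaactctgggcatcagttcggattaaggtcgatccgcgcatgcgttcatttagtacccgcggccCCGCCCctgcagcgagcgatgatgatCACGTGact
The Bcl2 window held 7 GC boxes and none of the other motifs. GC boxes were in 10 of the 15 windows, of 7 members, and in 32.7% of 32851 windows of all genes. The FOXO heptamer was found in 1 of 3 Bbc3 windows, starting 167 bases before the start site, and in 1 of 2 Bcl2l11 windows, 227 bases before it, against 3.17% of all windows. The p53 decamer was found only in the Bax window, 201 bases before the start site, against 7.13% of all windows. The E-box was in 2 of the 15 windows, 1 of Bax and 1 of Bbc3 that is not printed, against 6.02% of all windows. TATAAA and TGACGTCA were in none of the 15 windows and in 12.4% and 1.55% of all. The printed Bbc3 window lies in an intron of the GENCODE gene, and a letter match is a description, not a binding site.

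Other genes of the apoptosis pathway were described by 6 lists of 72 genes, of which 66 were tested. In these lists 1 gene was called higher, 1 was called lower and 64 did not pass, where 2.86% of all genes tested were called. Their median log2 fold change was 0.09, against 0.02 over all genes tested. Cflar, which encodes c-FLIP, the inhibitor of caspase-8 at death receptors, rose to 82.0 and 63.7 CPM in 129, against 25.8 and 23.1 CPM in B6 (log2 fold change 1.57, SE 0.25, edgeR adjusted p = 0.036). It was the only call among 9 tested death receptor and adaptor genes, whose median was 0.84. Pim1, a kinase that phosphorylates and inactivates Bad, fell to 98.4 and 77.8 CPM in 129, against 372 and 452 CPM in B6 (log2 fold change -2.23, SE 0.21, edgeR adjusted p = 0.029). It was the only call among 15 partners and turnover regulators of the family, whose median was 0.01. Leaving out 1 library leaves 1 in a strain, so such fits are given as effect sizes only. With each library left out in turn, the log2 fold change of Cflar lay between 1.39 and 1.75 and that of Pim1 between -2.40 and -2.06.

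No gene of the other 4 lists passed. Of 2 tested relatives of the pro-survival group, Bcl2l2, which encodes Bcl-w, a protein needed for spermatogenesis in mice, was at 61.4 and 50.4 CPM in 129 and at 24.7 and 29.5 CPM in B6 (log2 fold change 1.05, SE 0.25, edgeR adjusted p = 0.064). Bcl2l10 was under 1 CPM in all 4 libraries. In the list of other BH3-only and related genes, 9 were tested and the median was -0.05, with the mitophagy receptor gene Bnip3l at -0.54 (SE 0.19) and Bcl2l13 at -0.38 (SE 0.25). Of 18 apoptosome, caspase and inhibitor genes 9 were above and 9 below 0, with Casp2 at -0.29 (SE 0.23) and Aifm1 at -0.08 (SE 0.18). Of 13 transcription factors and kinases upstream of BH3-only genes the median was -0.11. Foxo3, an activator of Bcl2l11 and Bbc3, was at 176 and 191 CPM in 129 and at 315 and 315 CPM in B6 (log2 fold change -0.78, SE 0.17, edgeR adjusted p = 0.055), and Mdm2, the ubiquitin ligase of p53, was at -0.11 (SE 0.23). At an unadjusted p under 0.05 these 4 lists held 1 of 2, 5 of 9, 3 of 18 and 8 of 13 tested genes, where 28.1% of all genes had such a p. DESeq2 called 1, 3, 3 and 7 of them, where it called 1587 higher and 898 lower among the 16005 genes of the edgeR test.

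**Figure D4:**
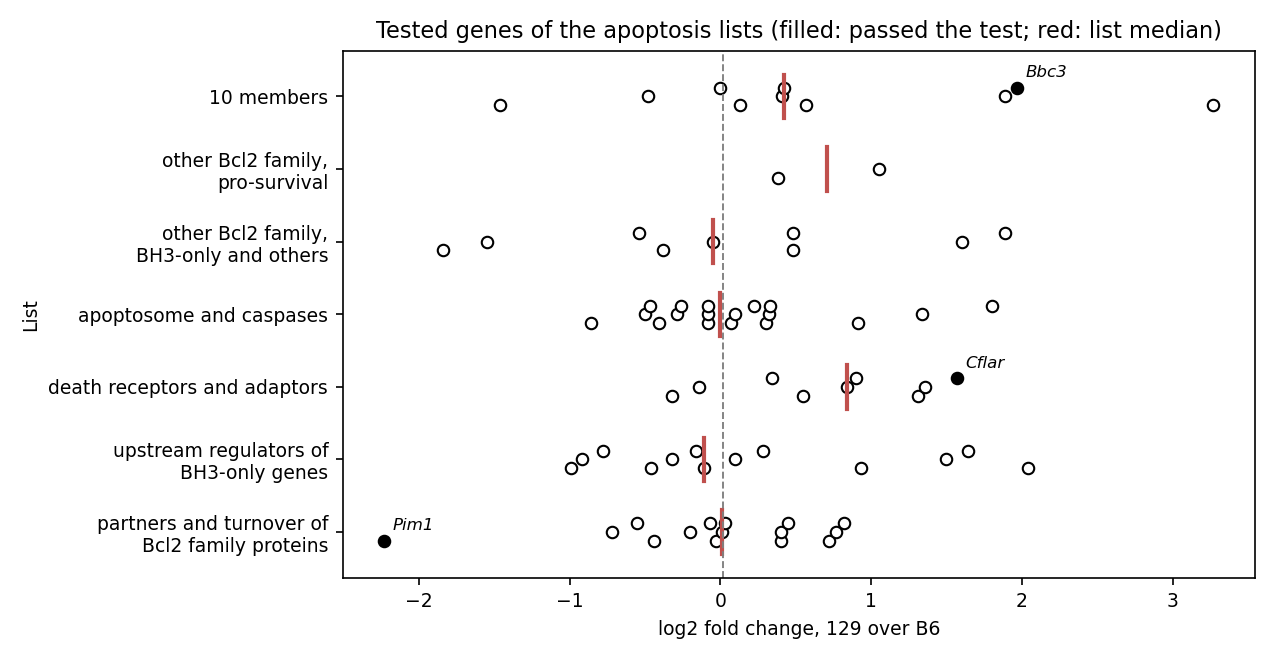
Log2 fold change of 129 over B6 for the tested genes of the 10 members and of each of the 6 apoptosis lists; filled points passed the edgeR test, red lines are list medians and the dashed line is the median of all genes tested. Bbc3 and Cflar are the filled points above 0 and Pim1 is the filled point below 0, at -2.23.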

How the data were processed

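The authors deposited 1 table of unnormalized read counts by gene, with a column for each library per the file headers. The submitters' processing notes name the build mm10 and the tools HISAT2 2.2.1, HTSeq 0.13.5, bcl2fastq 2.20, DESeq2 1.30.1 and cutadapt 3.4, without roles or settings; the counting's annotation and strand option are not stated there. Per the labels' protocols, libraries were stranded mRNA, read as single reads of 76 bp. Since mm10 is the C57BL/6 genome, 129 reads that carry strain variants may align less often. Libraries were assigned to strains from their titles. GENCODE M21, of the same assembly, held 99.85% of the 32285 identifiers and gave positions and merged exon lengths.

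edgeR 4.0.16 in R 4.3.3 was run on the counts with filterByExpr (16005 genes kept), TMM factors and the robust quasi-likelihood test with strain as the only term, at an adjusted p threshold of 0.05. The fit was tested on simulated data. CPM use TMM-scaled library sizes, and the SE is the log2 fold change over the square root of F. With 2 libraries against 2 an exact permutation test of 1 gene cannot go below p = 0.333, so none is given. Alternatives were DESeq2 1.42.0, limma-voom (limma 3.58.1), the legacy and non-robust forms of edgeR, DESeq2 size factors or library totals for scaling, a stricter filter or none, a replicate block, each library left out, transcript length and, added after seeing the data, Pmaip1 left out of the role sums. The members and lists were chosen with earlier results of these data known. All 10 members are named, and from each pathway list up to 3 called genes per direction, or, in lists without a call, the 2 of highest mean CPM.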

Additional observations from a re-analysis of the deposited data

How the results depend on the processing

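The number of members called was 1 in the reported test and also with DESeq2 size factors and non-robust estimation. It was 4 with DESeq2, 2 with library totals and 2 with the replicate block. It was 0 with limma-voom, legacy edgeR, no filter and the stricter filter, where 3, 4, 4 and 4 members had an unadjusted p under 0.05. Such a p was common: 4194, 4369, 5166 and 4170 of all genes had it in these fits. That was 26.2% of genes with limma-voom, against 28.1% in the reported test. Leaving out 1 library gave 0 to 2 members, and 0 to 827 of all genes against 457. Over all genes the reported test called 457, DESeq2 2526, library totals 1052 and the replicate block 844. Legacy edgeR called 406, the stricter filter 339, no filter 260 and limma-voom 246. Of the pathway lists, 2 genes were called in the reported test, 18 with DESeq2, 5 with library totals and 1 with limma-voom. Among the 16005 genes of the edgeR test, DESeq2 called 1587 higher and 898 lower. The same replicate number in both strains marked nothing in the labels, and deviations of same-numbered libraries had a correlation of -0.022, so the block that added a call of Bcl2 (log2 fold change 3.20, edgeR adjusted p = 0.034) is not read as a pairing. Mcl1 changed sign with library totals (0.04) and ranged from -0.27 to 0.22 with a library left out, Mdm2 from -0.39 to 0.13 and Bcl2l10 from -0.16 to 1.33. The other 9 members kept their sign in all 13 alternatives, which reuse the same counts. For 7 members the libraries of the strains did not overlap, so leaving a library out could hardly change the sign. Bad went down to 0.05, Bid to 0.06 and Bcl2l11 up to -0.05. With the longest transcript as length, 5 of 10 members kept their rank in 129, and the shares became 26.7% (pro-survival) and 51.7% (effector) in 129 and 44.9% (effector) in B6. With Pmaip1 left out of the sums, chosen after seeing the data, the mean shares were 51.6% (effector) and 18.3% (BH3-only) in 129 and 35.2% (pro-survival), 47.3% (effector) and 17.5% (BH3-only) in B6. The cause of the other shifts was not tested. Bcl2, with 22 and 15 counts in B6, is the member most limited by depth.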

Other observations

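Several further genes of the pathway lay apart between the strains without passing the test, and they were named after their values were seen. Lying apart was common: it held for 46 of the 66 tested genes of the pathway lists, 26 higher and 20 lower in 129. The same held for 60.1% of all genes tested. Bok, an effector-like relative of Bax, was at 21.6 and 19.8 CPM in 129 and at 7.07 and 6.58 CPM in B6 (log2 fold change 1.60, SE 0.35, edgeR adjusted p = 0.055). Bik, a BH3-only gene, was at 11.3 and 10.1 CPM in 129 and at 21.1 and 41.4 CPM in B6 (-1.55, SE 0.41, edgeR adjusted p = 0.074). Bnip3, a hypoxia-induced relative, was at 14.1 and 13.3 CPM in 129 and at 73.2 and 24.8 CPM in B6 (-1.84, SE 0.51, edgeR adjusted p = 0.084), where the first B6 library alone was high. Atf4, a transcription factor of the integrated stress response, was at 289 and 228 CPM in 129 and at 132 and 140.3 CPM in B6 (0.93, SE 0.20, edgeR adjusted p = 0.054). Ddit3, which encodes CHOP, a factor downstream of Atf4, was at 60.5 and 23.2 CPM in 129 and at 10.6 and 19.0 CPM in B6 (1.50, SE 0.52, edgeR adjusted p = 0.12). Trp53 itself was at 119 and 132 CPM in 129 and at 90.3 and 116 CPM in B6 (0.28, SE 0.21, edgeR adjusted p = 0.42). Foxo1 was lower in 129, at 128 and 174 CPM against 292 and 281 CPM in B6 (-0.92, SE 0.21, edgeR adjusted p = 0.058). So was Atm, at 113 and 163 CPM in 129 and at 299.8 and 249 CPM in B6 (-0.99, SE 0.23, edgeR adjusted p = 0.061). DESeq2 called Bok, Bik, Bnip3, Atf4, Ddit3, Foxo1 and Atm but not Trp53.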
